A study of Rattus norvegicus with 12 samples.

Results

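Cell cycle and proliferation genes were examined in left ventricular tissue of infarcted rats. The genes were chosen by symbol, as a list of 39 genes that act in the G1/S transition, in origin licensing, in DNA synthesis, in mitosis or in cytokinesis, with no threshold on measured values. Of the 39, 38 had a row among the 30560 genes of the count table, and 37 had reads and were tested among 18182 genes with at least 10 counts in all. E2f1 was not analysed here. Foxm1, a transcription factor that drives mitotic genes, was at 0 counts in all 12 libraries, which allows up to 3 counts in each. In the RefSeq annotation (rat genome GRCr8), which is not the Ensembl annotation used for counting, Foxm1 overlaps Tex52. Whether overlap set its count at 0 was not tested.

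Male Wistar rats had sham surgery or ligation of the left anterior descending coronary artery, which causes a myocardial infarction (MI), at 7 weeks of age. They were gavaged daily for 8 weeks, by one account from 24 hours after surgery, with vehicle (0.5% carboxymethylcellulose) or with urolithin A (UA), a gut metabolite of dietary ellagitannins that stimulates mitophagy. The sources differ on when treatment began and on the dose, which is therefore not given. The groups were Sham (operated without ligation, vehicle), MI (ligated, vehicle) and MI + UA (ligated, UA), with 4 rats and 1 library per rat in each. RNA came from formalin-fixed, paraffin-embedded sections of the middle block of the left ventricle, so each library mixes all cell types of a section. The label of rat 66 puts it in MI + UA, but a supplementary table of the study lists it among the vehicle MI rats. It was counted as MI + UA, and calls and directions of the genes named by rule that change with rat 66 in MI are given.

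A cell that enters the cycle first makes cyclin E and the MCM helicase that licenses replication origins, then the enzymes that supply nucleotides and copy DNA, and later the cyclins, kinases, motors and checkpoint proteins that separate the chromosomes and divide the cell. In resting cells many of these genes are held off by repressor E2F and DREAM complexes, which bind E2F sites and CHR elements (cell cycle genes homology regions) near the transcription start. CCAAT boxes in the same promoters are bound by NF-Y, an activator. Adult cardiomyocytes rarely divide, while fibroblasts, endothelial cells and macrophages of an infarcted heart can.

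Promoters are shown for 3 genes, picked for the reasons given next and not as typical of the list. Kif23 was the cell cycle gene with the smallest adjusted p, Mki67 is the usual marker of cycling cells, and Mcm6 had the most E2F matches. The sequences are from RefSeq (GRCr8), cover 250 bases before and 50 bases after the annotated start, and read 5′ to 3′ along the gene. Capitals mark matches on either strand to CCAAT, to CHR letters (TTTGAA or else TTCGAA) or to E2F letters (TTCCCGC or else TTGGCGC or else TTCGCGC or else TTGCCGC), and matches that overlap run together.
Kif23, chr8:71320535-71320834, minus strand: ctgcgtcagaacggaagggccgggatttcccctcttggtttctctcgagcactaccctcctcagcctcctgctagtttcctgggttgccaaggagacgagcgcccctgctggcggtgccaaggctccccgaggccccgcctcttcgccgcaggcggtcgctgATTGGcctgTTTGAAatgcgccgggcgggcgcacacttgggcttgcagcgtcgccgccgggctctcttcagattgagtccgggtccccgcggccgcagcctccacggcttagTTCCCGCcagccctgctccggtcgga
Mki67, chr1:199952544-199952843, minus strand: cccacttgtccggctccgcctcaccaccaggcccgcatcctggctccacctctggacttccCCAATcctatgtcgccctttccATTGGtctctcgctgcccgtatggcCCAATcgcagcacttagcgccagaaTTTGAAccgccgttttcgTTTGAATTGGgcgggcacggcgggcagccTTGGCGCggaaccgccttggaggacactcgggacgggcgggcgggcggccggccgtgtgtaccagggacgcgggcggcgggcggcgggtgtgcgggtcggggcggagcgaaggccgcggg
Mcm6, chr13:42404303-42404602, minus strand: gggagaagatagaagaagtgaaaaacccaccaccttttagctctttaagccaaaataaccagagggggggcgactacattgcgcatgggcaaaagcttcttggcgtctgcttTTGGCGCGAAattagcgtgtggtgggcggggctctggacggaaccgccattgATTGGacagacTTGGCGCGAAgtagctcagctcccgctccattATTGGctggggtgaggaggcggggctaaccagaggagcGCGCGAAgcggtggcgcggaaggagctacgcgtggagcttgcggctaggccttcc
The Kif23 window held 1 CCAAT, 1 CHR and 1 E2F match. That of Mki67 held 4 CCAAT, 2 CHR and 1 E2F match, with 1 CHR and 1 CCAAT match sharing a base. Mcm6 had 2 CCAAT and 5 E2F matches and 0 CHR matches. Promoters were matched for 29 of the 39 genes. A CCAAT match was present in 21 of the 29 (72.4%), against 37.7% of all 27457 rat promoters in the table and 37.1% of the 11242 promoters of tested genes. CHR letters were present in 16 (55.2%), against 19.5% of all promoters and 13.9% of those of tested genes. Both CCAAT and CHR letters were found in 13 (44.8%), against 7.83% and 5.68%. E2F letters were found in 10 (34.5%), against 10.0% and 16.4%. These matches describe letters, not bound sites.

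Reads on genes numbered 6228706 to 8958828 for a Sham rat, 6829591 to 12743184 for an MI rat and 6819444 to 19031695 for an MI + UA rat, and the mitochondrially encoded genes took 50.15% to 58.55% of them. The cell cycle genes together took 13365 of 121502354 reads, or between 590 and 1870 reads per library. Their totals over the 12 libraries ran from 15 for Birc5 to 1658 for Ccne2, with a median of 226 against 651.5 over all genes tested, and 8 genes had under 100. Levels are given as CPM, read counts scaled to a common library size with TMM factors, and each log2 fold change is edgeR's, with its standard error (SE).

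In MI versus Sham, the direction was mostly upward but few genes passed the test. Of the 37 genes, 30 had a higher and 7 a lower fitted level in MI, against 9633 higher of 18182 genes tested, and the median log2 fold change was 0.29 against 0.03 over all genes. Kif23 and Rrm2 rose with an adjusted p under 0.05. That is 5.41% of the 37, where 5.82% of all genes tested rose, and 0 of the 37 fell, where 5.53% of all genes did. The share called was thus near the background. At an unadjusted p under 0.05 there were 7 genes (18.9%), all higher in MI (Kif23, Rrm2, Ccna2, Mcm4, Anln, Mcm3 and Cenpe). Of all genes, 12.6% were higher at this threshold and 23.9% differed in either direction, so the list was above the background for higher genes and below it for both directions together. The 4 MI rats all lay above the 4 Sham rats at 5 genes (Kif23, Rrm2, Ccna2, Mcm4 and Hmmr), or 13.5%, and all below them at 0, while 8.12% of all genes were apart and higher and 15.7% were apart in either direction. In bulk tissue, fewer or more cells of a type and less or more RNA per cell cannot be told apart. Leaving out each of the 12 rats in turn gave between 25 and 31 genes with a higher level in MI, and between 0 and 3 genes called. The groups also differed in the percentage of reads assigned to genes, which was 46.85% to 48.35% in Sham, 43.27% to 44.81% in MI and 42.9% to 47.17% in MI + UA, so that Sham and MI did not overlap. Its part in these changes was not tested.

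**Figure D1:**
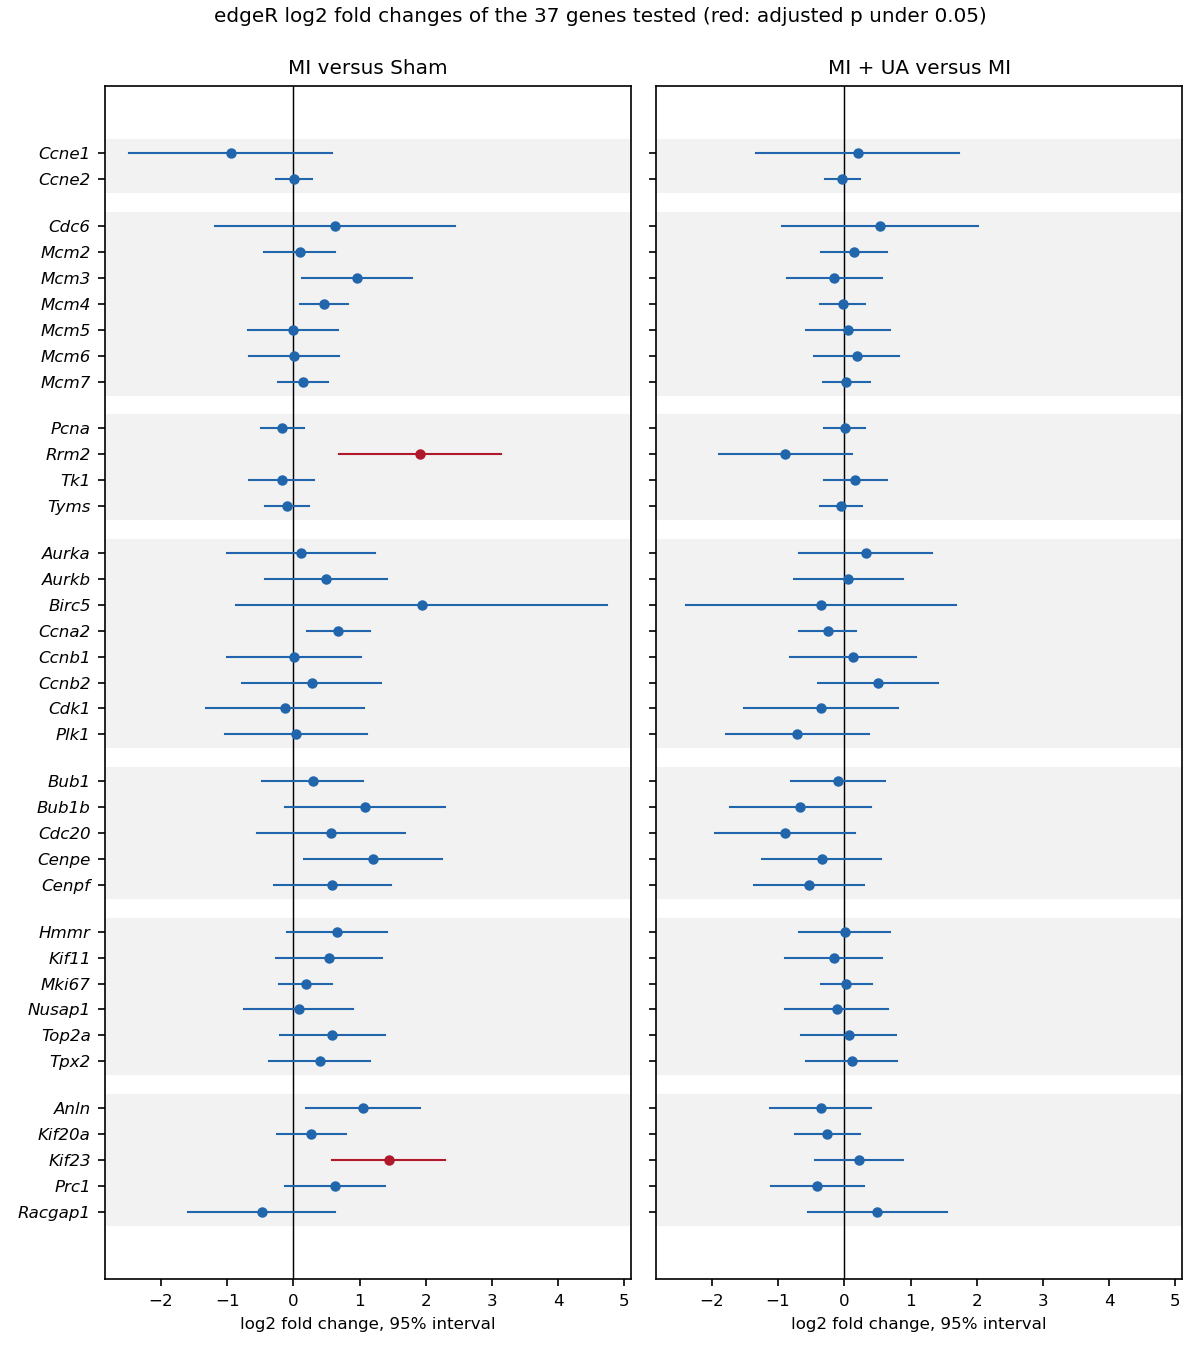
Log2 fold changes (points) with 95% intervals (lines) of the 37 genes tested, by role from G1/S (top) to cytokinesis (bottom), for MI versus Sham (left) and MI + UA versus MI (right). Red marks an adjusted p under 0.05: Kif23 and Rrm2 on the left and 0 genes on the right, where every interval includes 0.

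In MI + UA versus MI, the same genes were split evenly and 0 passed the test. The fitted level was higher with UA for 18 genes and lower for 19 (median log2 fold change -0.03). With edgeR, 0 of the 37 genes had an adjusted p under 0.05 (0.0% of all genes tested) and 0 had an unadjusted p under 0.05 (3.79% of all genes). DESeq2 called 0 of them as well. The groups were apart at 0 of the 37 (2.34% of all genes). The log2 fold changes ran from -0.90 for Cdc20 to 0.54 for Cdc6, and both of these genes had low counts (79 and 37 reads over all libraries).

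Compared with Sham, the MI + UA rats had 28 genes higher and 9 lower (median log2 fold change 0.22). Kif23 rose, which is 2.70% of the 37 genes against 5.16% of all genes tested, and 0 fell, against 4.27%. Kif23 and Mcm4 were apart and higher in MI + UA (5.41%), against 7.83% of all genes that were apart and higher. The MI rats enter both comparisons with MI and the Sham rats both comparisons with Sham, so these comparisons are not independent of each other.

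**Figure D2:**
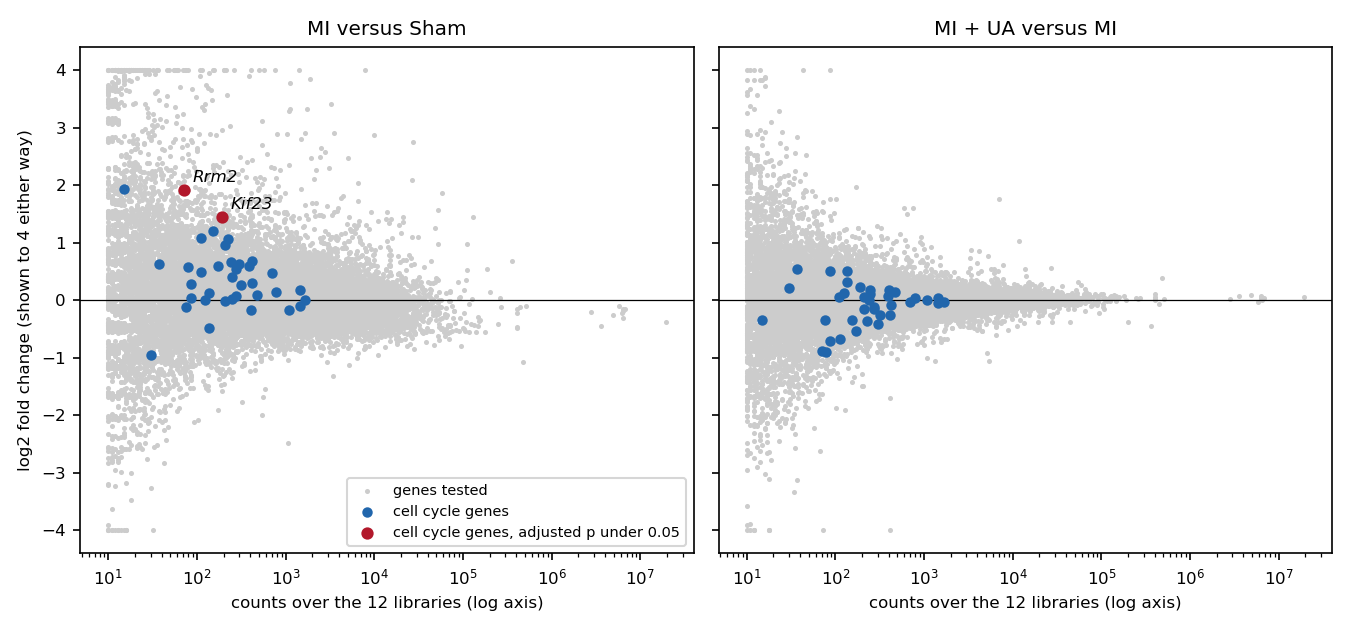
Log2 fold change (vertical axis, values beyond 4 drawn at 4) against counts over the 12 libraries (horizontal log axis) for all 18182 genes tested (grey) and the 37 cell cycle genes (blue, or red at an adjusted p under 0.05). The spread widens below 100 counts, where Rrm2 lies with 71 counts, and the cell cycle genes sit mostly above 0 on the left and around 0 on the right.

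Among the G1/S genes, Ccne2, one of the E-type cyclins that start S phase with CDK2, had the most reads of the whole list. Its level was 15.6, 13.4, 14.7 and 11.6 CPM in Sham rats 12, 17, 32 and 38, 11.7, 14.6, 13.5 and 15.9 CPM in MI rats 36, 57, 61 and 89, and 12.1, 13.5, 14.6 and 14.4 CPM in MI + UA rats 29, 58, 64 and 66. The groups overlapped throughout. The log2 fold change was 0.011 (SE 0.13, 95% interval -0.26 to 0.28) in MI versus Sham and -0.03 (SE 0.13, interval -0.30 to 0.23) in MI + UA versus MI. Ccne2 overlaps Ints8 in the RefSeq annotation (GRCr8), which is not the Ensembl annotation used for counting. Whether reads were counted by strand is not given in the sources used here, so the Ccne2 count can gain or lose reads there. Ccne1, the other cyclin E, had 30 reads in all, and its log2 fold change of -0.95 in MI versus Sham had an SE of 0.73 (adjusted p = 0.480).

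Origin licensing genes included all 6 subunits of the MCM helicase and Cdc6, which loads it. In MI versus Sham 6 of the 7 had a higher level and 0 passed the test (median log2 fold change 0.14). Mcm4 was 4.27, 4.91, 3.70 and 5.01 CPM in Sham rats 12, 17, 32 and 38 and 6.80, 6.12, 6.64 and 5.30 CPM in MI rats 36, 57, 61 and 89, so that every MI rat lay above every Sham rat. In MI + UA rats 29, 58, 64 and 66 it was 6.63, 5.52, 6.63 and 5.63 CPM, within the range of MI and again above Sham. Means and SDs (n = 4) were 4.47 ± 0.608 CPM for Sham, 6.21 ± 0.678 CPM for MI and 6.10 ± 0.611 CPM for MI + UA. Mcm4 missed the threshold in MI versus Sham (log2 fold change 0.47, SE 0.17, adjusted p = 0.0951) and in MI + UA versus Sham (0.44, SE 0.17, adjusted p = 0.128).

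The other MCM subunits did not share a single pattern. Mcm3 averaged 1.02 ± 0.638 CPM over the Sham rats and 2.03 ± 0.341 CPM over the MI rats (SD, n = 4), with a log2 fold change of 0.96 (SE 0.40, adjusted p = 0.135), but the rats overlapped. Mcm7 had 5.90, 5.196, 6.06 and 6.20 CPM in the Sham rats, 5.78, 4.55, 6.54 and 8.56 CPM in the MI rats and 6.97, 6.04, 6.36 and 6.81 CPM in the MI + UA rats, in the order of rats given for Mcm4. The highest and the lowest Mcm7 levels were both in MI rats, 89 and 57. Mcm2 was 2.26, 4.04, 3.20 and 4.77 CPM in Sham, 3.88, 3.45, 4.77 and 3.18 CPM in MI and 4.91, 5.39, 3.93 and 2.93 CPM in MI + UA, with wide overlap. The log2 fold changes of Mcm7 and Mcm2 in MI versus Sham were 0.14 (SE 0.18) and 0.09 (SE 0.26), and those of Mcm5 and Mcm6 were -0.0078 and 0.015. Cdc6 had 37 reads in all and was listed at 0 in 1 Sham and 1 MI rat. Between MI + UA and MI, the licensing genes had log2 fold changes from -0.15 for Mcm3 to 0.54 for Cdc6.

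**Figure D3:**
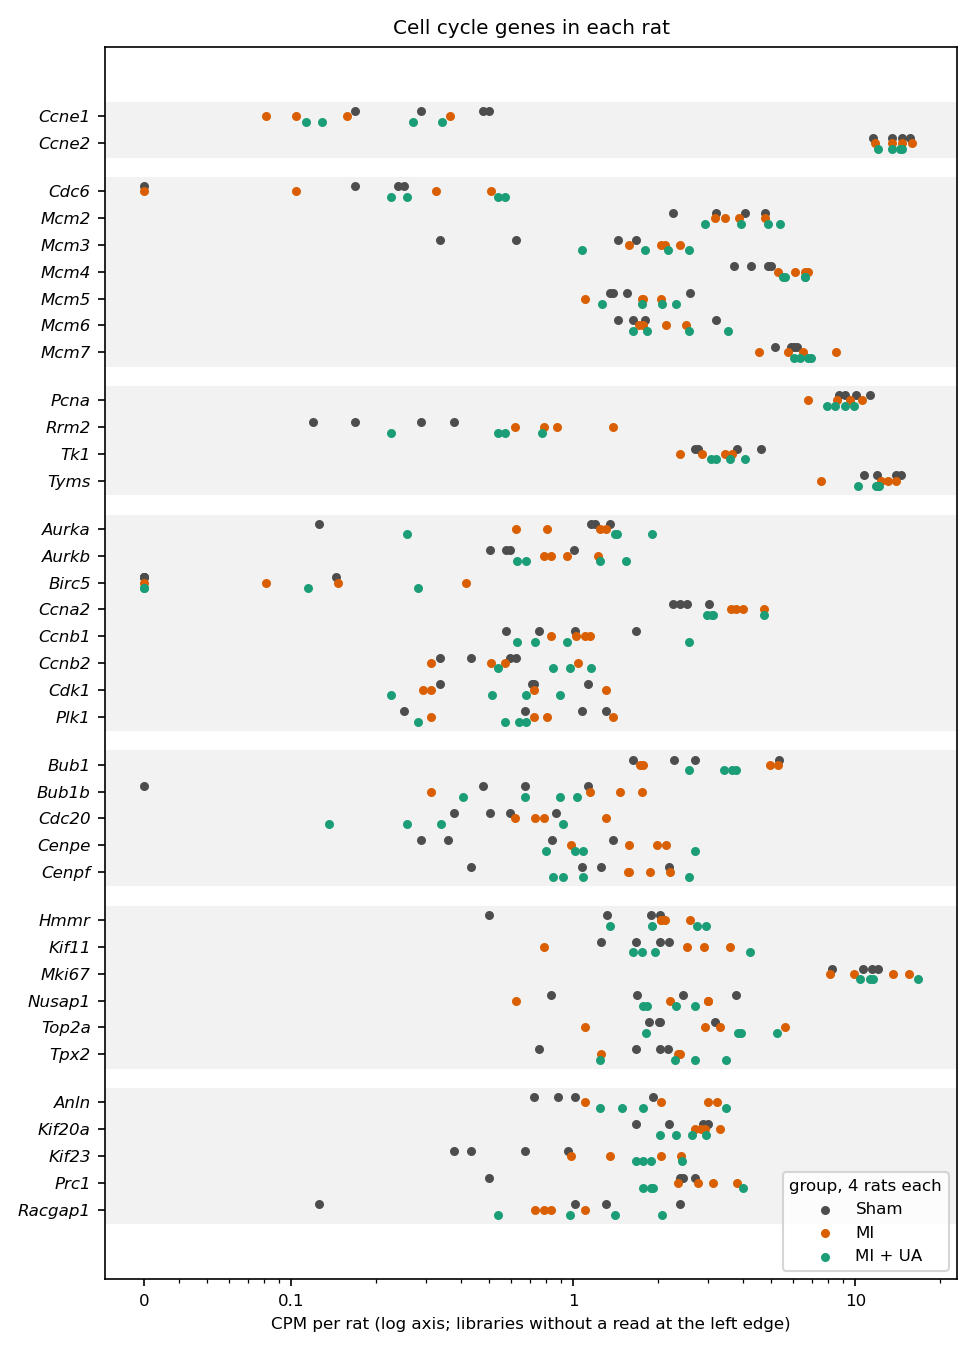
CPM of each of the 37 genes in each rat (1 point per rat, log axis, libraries without a read at the left edge), grouped by role as in the plot of fold changes. Ccne2, Tyms, Mki67 and Pcna lie around 10 CPM with the 3 groups mixed, while the points of Kif23, Rrm2, Ccna2 and Mcm4 separate MI from Sham.

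Of the DNA synthesis genes, Rrm2 stood apart from the other 3. Rrm2 encodes the S-phase subunit of ribonucleotide reductase, which makes deoxynucleotides. It had 3, 2, 1 and 1 reads in Sham rats 12, 17, 32 and 38, 12, 5, 6 and 17 reads in MI rats 36, 57, 61 and 89, and 10, 6, 4 and 4 reads in MI + UA rats 29, 58, 64 and 66. Means and SDs (n = 4) were 0.238 ± 0.116 CPM for Sham, 0.917 ± 0.329 CPM for MI and 0.527 ± 0.226 CPM for MI + UA. The MI rats (0.623 to 1.39 CPM) all exceeded the Sham rats (0.119 to 0.376 CPM), while the MI + UA rats (0.225 to 0.771 CPM) overlapped both. Rrm2 rose in MI versus Sham by a log2 fold change of 1.91 (SE 0.59, 95% interval 0.69 to 3.13, edgeR adjusted p = 0.0387). With UA against MI the log2 fold change was -0.89 (SE 0.48, interval -1.89 to 0.11, adjusted p = 1), and in MI + UA versus Sham it was 1.02 (SE 0.63, adjusted p = 0.370).

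The call for Rrm2 rested on few reads and on single rats. It was lost without Sham rat 17, 32 or 38 and without MI rat 36 or 89. Over the 12 fits that each left out 1 rat, the edgeR adjusted p was up to 0.146 and the log2 fold change 1.63 to 2.24. The call was also lost with rat 66 counted in MI (adjusted p = 0.106). That setting moved the log2 fold change given for UA against MI from -0.89 to -0.30. DESeq2 gave the gene no adjusted p in MI versus Sham, and filterByExpr, edgeR's stricter filter on low counts, removed it. Rrm2 overlaps Cys1 in the RefSeq annotation (GRCr8).

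For the remaining DNA synthesis genes the groups overlapped and 0 passed the test. Pcna, the sliding clamp of DNA polymerases, was 10.0, 11.3, 8.75 and 9.18 CPM in the Sham rats, 6.80, 10.5, 8.62 and 9.53 CPM in the MI rats and 8.46, 9.89, 9.20 and 7.93 CPM in the MI + UA rats. Its lowest value was in MI rat 36, the rat with the highest Kif23 level among the MI rats. The log2 fold change of Pcna was -0.16 in MI versus Sham (SE 0.15, interval -0.49 to 0.16) and 0.0046 in MI + UA versus MI (interval -0.31 to 0.32). Tyms, which makes thymidylate, was 13.9, 10.7, 14.5 and 11.9 CPM in Sham, 12.3, 7.53, 13.9 and 13.0 CPM in MI and 10.2, 12.1, 12.04 and 11.9 CPM in MI + UA. MI rat 57 was the lowest of the 12 rats for Tyms, and the log2 fold change in MI versus Sham was -0.10 (SE 0.16). Tk1, thymidine kinase, had log2 fold changes of -0.17 and 0.17 in MI versus Sham and in MI + UA versus MI.

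Among the mitotic cyclins and kinases, 7 of 8 genes had a higher level in MI than in Sham (median log2 fold change 0.20), and 0 passed the test. Ccna2, the cyclin A of S phase and early mitosis, was 2.26, 3.03, 2.53 and 2.39 CPM in Sham rats 12, 17, 32 and 38, 4.75, 3.76, 3.63 and 3.99 CPM in MI rats 36, 57, 61 and 89, and 2.97, 4.75, 3.11 and 3.10 CPM in MI + UA rats 29, 58, 64 and 66. All MI rats were above all Sham rats, and 3 of the 4 MI + UA rats were below all MI rats. The log2 fold change was 0.68 (SE 0.23, adjusted p = 0.0624) in MI versus Sham, -0.25 (SE 0.21, interval -0.69 to 0.18) in MI + UA versus MI and 0.43 (SE 0.23, adjusted p = 0.299) in MI + UA versus Sham. Ccna2 passed the threshold in MI versus Sham under the stricter filter and without MI + UA rat 58.

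The kinases and B-type cyclins that drive entry into mitosis had fewer reads, between 76 and 136 each. Cdk1, the mitotic kinase, averaged 0.726 ± 0.324 CPM over the Sham rats, 0.659 ± 0.474 CPM over the MI rats and 0.579 ± 0.284 CPM over the MI + UA rats (SD, n = 4). For its partners Ccnb1 and Ccnb2 the log2 fold change in MI versus Sham was 0.0095 (SE 0.49) and 0.28 (SE 0.50). The mitotic kinases Aurka, Aurkb and Plk1 had 0.12, 0.50 and 0.04, each with an SE of at least 0.44. For UA against vehicle, Plk1 had a log2 fold change of -0.71 with an interval of -1.79 to 0.37. Birc5 (survivin, a partner of Aurkb) had 1 read over the 4 Sham rats, and no fold change is given for it.

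All 5 spindle checkpoint and kinetochore genes had a higher fitted level in MI than in Sham (median log2 fold change 0.59), and all 5 a lower one in MI + UA than in MI (median -0.53), and 0 passed the test either way. The MI rats are shared by these comparisons, so a high MI group alone gives both directions. Bub1, the checkpoint kinase with the most reads of these, was 1.63, 5.34, 2.69 and 2.27 CPM in Sham, 4.97, 1.73, 1.76 and 5.30 CPM in MI and 3.43, 2.57, 3.65 and 3.77 CPM in MI + UA. Rats 57 and 61 lay about where the lowest Sham rat did, and rats 36 and 89 near the highest. Its log2 fold change was 0.29 (SE 0.37) in MI versus Sham and -0.09 (SE 0.34) in MI + UA versus MI. Cenpe, a kinetochore motor, had means of 0.717 CPM in Sham and 1.66 CPM in MI and did not pass the test (log2 fold change 1.20, SE 0.50, adjusted p = 0.141). Bub1b, the BUBR1 checkpoint protein, had 1.08 (SE 0.58), Cdc20, which activates the anaphase-promoting complex, 0.57 (SE 0.54) and Cenpf, a kinetochore protein, 0.59 (SE 0.42) in the same comparison. Between MI + UA and MI, the intervals of these genes ran from -1.96 to 0.17 for Cdc20 and from -1.73 to 0.40 for Bub1b.

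Mki67 (Ki-67, a protein of the surface of mitotic chromosomes) did not separate the groups. Its level was 12.04, 8.23, 11.5 and 10.6 CPM in Sham rats 12, 17, 32 and 38, 15.5, 8.15, 9.86 and 13.6 CPM in MI rats 36, 57, 61 and 89, and 11.3, 16.7, 11.5 and 10.4 CPM in MI + UA rats 29, 58, 64 and 66. The lowest and nearly the highest of the 12 values were both in MI rats. Means and SDs (n = 4) were 10.6 ± 1.68 CPM for Sham, 11.8 ± 3.37 CPM for MI and 12.5 ± 2.86 CPM for MI + UA. The log2 fold change was 0.18 (SE 0.19, interval -0.22 to 0.59) in MI versus Sham and 0.03 (SE 0.18, interval -0.35 to 0.41) in MI + UA versus MI, where it was 0.16 with rat 66 counted in MI.

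Top2a, the topoisomerase that untangles chromosomes, split the rats in the same way. It was 2.01, 3.18, 1.85 and 2.03 CPM in Sham, 5.63, 1.10, 3.32 and 2.93 CPM in MI and 3.83, 5.27, 3.93 and 1.801 CPM in MI + UA, in the same order of rats. MI rat 57 was the lowest of all 12, and MI rat 36 the highest. The log2 fold change in MI versus Sham was 0.59 (SE 0.38, adjusted p = 0.380). Hmmr, which acts in spindle assembly, was 0.502 to 2.02 CPM in Sham and 2.04 to 2.595 CPM in MI, a log2 fold change of 0.66 (SE 0.36, adjusted p = 0.290). The spindle motor Kif11, the spindle proteins Tpx2 and Nusap1, and the genes above were all fitted higher in MI, from 0.08 for Nusap1 to 0.66 for Hmmr, and 0 of these 6 passed the test. Between MI + UA and MI they lay between -0.16 for Kif11 and 0.11 for Tpx2.

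**Figure D4:**
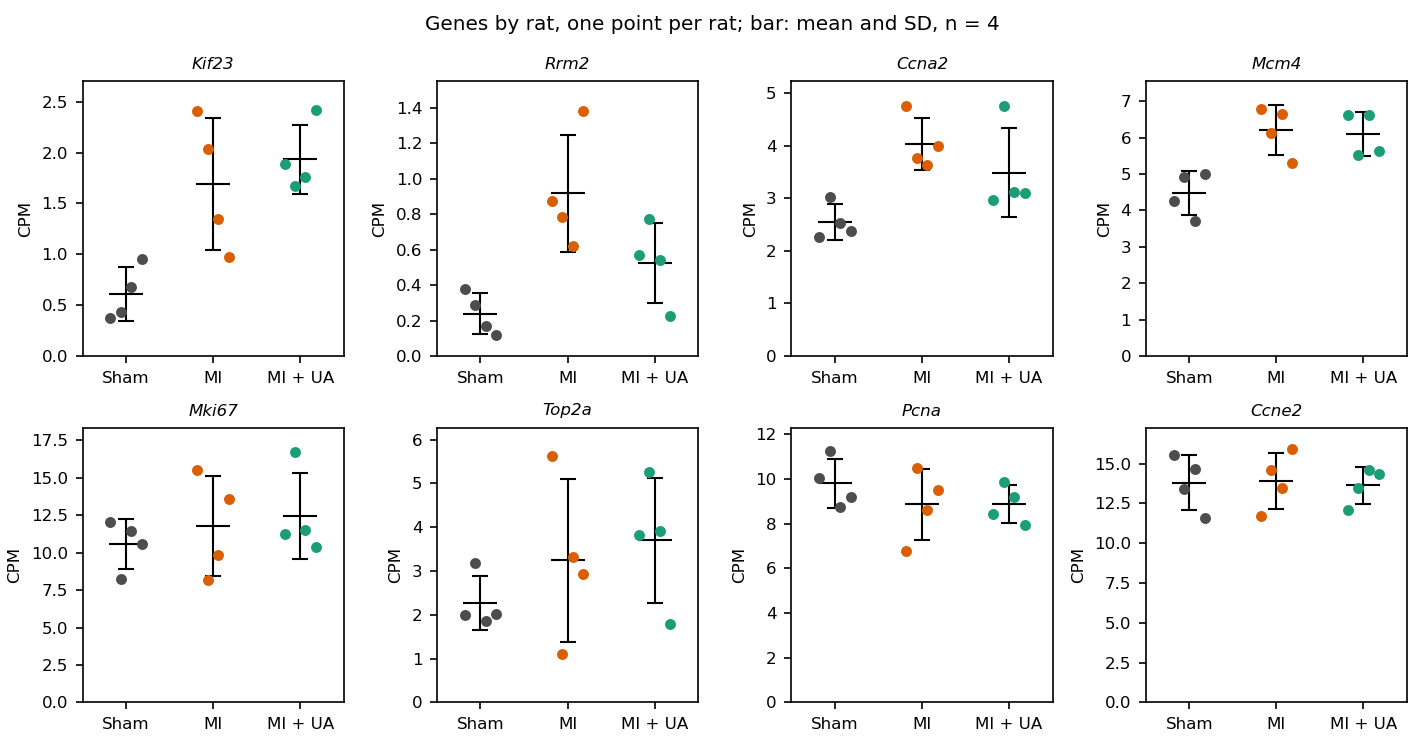
CPM of 8 genes (vertical axes) in the 3 groups, 1 point per rat, with the mean and SD (bars, n = 4). In the top row (Kif23, Rrm2, Ccna2, Mcm4) every MI rat lies above every Sham rat, and in the bottom row (Mki67, Top2a, Pcna, Ccne2) the groups overlap.

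The cytokinesis genes included the gene with the smallest adjusted p. Kif23 encodes a motor subunit of centralspindlin, the complex that organises the midzone between separating chromosomes. It had 3, 3, 4 and 8 reads in Sham rats 12, 17, 32 and 38, 33, 13, 13 and 12 reads in MI rats 36, 57, 61 and 89, and 33, 13, 13 and 43 reads in MI + UA rats 29, 58, 64 and 66. In CPM this was 0.376 to 0.954 in Sham, 0.978 to 2.41 in MI and 1.67 to 2.42 in MI + UA, so both infarcted groups lay above Sham, by a small gap for MI. Kif23 rose in MI versus Sham (log2 fold change 1.44, SE 0.41, 95% interval 0.59 to 2.29, edgeR adjusted p = 0.0253) and in MI + UA versus Sham (1.66, SE 0.40, interval 0.83 to 2.49, adjusted p = 0.0101). With UA against MI the log2 fold change was 0.22 (SE 0.32, interval -0.45 to 0.89).

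The call of Kif23 in MI + UA versus Sham was kept in 12 of 12 fits that each left out 1 rat, with an adjusted p of 0.00771 to 0.0375. In MI versus Sham it was kept in 8 of 12 and lost without Sham rat 12, 17 or 32 or MI rat 36 (largest adjusted p 0.103, log2 fold change 1.17 to 1.78 over the 12 fits). In the RefSeq annotation (GRCr8), no gene overlaps Kif23, while Anln overlaps Matcap2, Kif20a Cdc23, Kif11 Ide, Nusap1 Ndufaf1, Aurka Fam210b and Plk1 Ern2. Where genes overlap, a count can gain or lose reads. Overlaps in the Ensembl annotation used for counting were not examined.

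Racgap1, the partner of Kif23 in centralspindlin, was not called and was fitted in the opposite direction, at 1.21 ± 0.932 CPM over the Sham rats and 0.861 ± 0.162 CPM over the MI rats (SD, n = 4, log2 fold change -0.48, SE 0.53, adjusted p = 0.658). Anln, which scaffolds the contractile ring, averaged 1.13 ± 0.532 CPM over the Sham rats and 2.34 ± 0.973 CPM over the MI rats (SD, n = 4), with MI rat 57 among the Sham rats (log2 fold change 1.056, SE 0.41, adjusted p = 0.113). The midzone proteins Prc1 and Kif20a had log2 fold changes of 0.63 (SE 0.37) and 0.27 (SE 0.25). With UA against MI, Anln, Prc1 and Kif20a were lower (-0.36, -0.41 and -0.26) and Racgap1 higher (0.50), each with an interval that includes 0.

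Summed over the list, the infarcted rats of a group spanned more than the difference between group means. The sum was 96.6, 103, 101 and 98.7 CPM in Sham rats 12, 17, 32 and 38, 125, 92.5, 116 and 123 CPM in MI rats 36, 57, 61 and 89, and 107, 133, 113 and 101 CPM in MI + UA rats 29, 58, 64 and 66. MI rat 57 was thus below every Sham rat, while the other 3 MI rats were above every Sham rat. The groups averaged 99.9 ± 2.75 (Sham), 114 ± 14.9 (MI) and 113 ± 14.2 CPM (MI + UA), with the SD over 4 rats. The MI mean exceeded the Sham mean by 14.1 CPM, and by 28.5 CPM when counts were divided by the plain number of reads on genes without TMM. The MI + UA mean differed from the MI mean by -0.49 CPM, and by 6.41 CPM with rat 66 counted in MI. None of the 7 role groups had sums that separated MI from Sham: the sum of the licensing genes was 16.3 to 21.2 CPM in Sham and 19.3 to 24.0 CPM in MI, and that of the cytokinesis genes 4.89 to 9.30 CPM in Sham and 9.10 to 13.2 CPM in MI. No test is given for these sums.

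**Figure D5:**
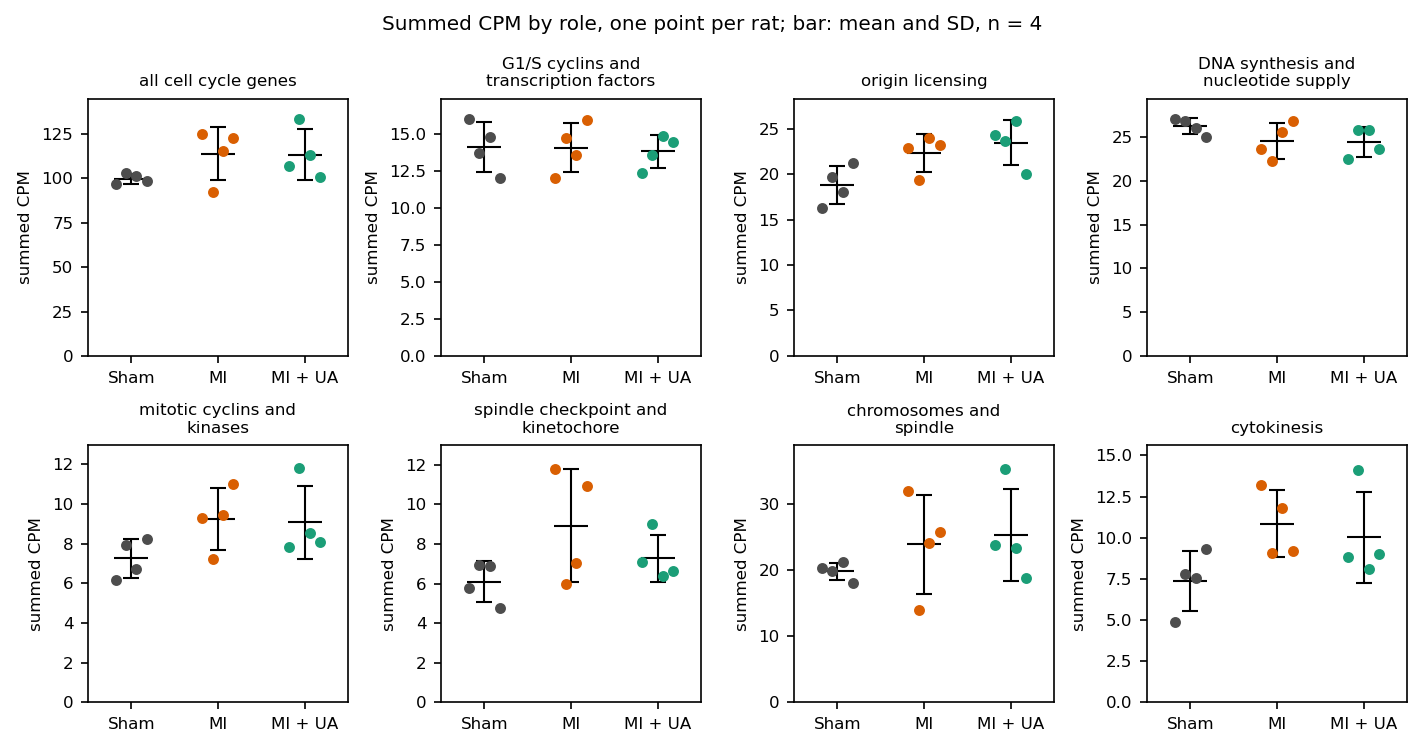
Summed CPM of all 37 genes and of the 7 role groups (vertical axes) in the 3 groups, 1 point per rat, with the mean and SD (bars, n = 4). Sham rats lie close together in the sum of all genes (96.6 to 103 CPM), while MI rats span 92.5 to 125 CPM and MI + UA rats 101 to 133 CPM.

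The same rats were high or low at many genes. Among the MI rats, rat 57 alone had the lowest level at 20 of the 37 genes and rat 36 alone the highest at 14. Among the MI + UA rats, rat 58 was highest at 21 genes and rat 66 lowest at 16. Rats 57 and 66 also had the lowest summed level of 8 fibroblast markers in their groups (2188 and 2205 CPM), and rat 58 had the highest of MI + UA (3685 CPM). Rat 36 was the third of the 4 MI rats for these markers (2819 CPM), and its macrophage marker sum was the lowest of MI (260.6 CPM, against 281.6 CPM in rat 57). The mitochondrially encoded share of reads was highest of MI in rat 57 (57.58%, against 50.23% to 52.98% in the other 3), and in MI + UA it was highest in rat 66 (56.78%) and lowest in rat 58 (50.15%). The part of these differences in the levels was not tested. The genes were measured in the same libraries, so these counts are not independent observations. The same ranks were not counted over all genes tested, so whether they are particular to the list is not known. Without rat 57, the MI sum exceeded Sham by 21.4 CPM, and Kif23 and Rrm2 were again the genes of the list called.

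Markers of other cell types moved with infarction in the same libraries. Over 8 fibroblast markers the summed level was 1127 to 1439 CPM in Sham, 2188 to 3574 CPM in MI and 2205 to 3685 CPM in MI + UA, and 6 of the 8 rose in MI versus Sham. Of 9 macrophage markers 8 rose, and their sum was 129.2 to 162.9 CPM in Sham, 260.6 to 417.2 CPM in MI and 219.1 to 444.2 CPM in MI + UA. Of the 7 cardiomyocyte markers with a row, all of which were read in every library, 6 fell, and their sum was 14480 to 17730 CPM in Sham, 10370 to 11130 CPM in MI and 10810 to 13110 CPM in MI + UA. Of 6 smooth muscle and pericyte markers 4 rose (sum 492 to 516.3 CPM in Sham, 498.2 to 631.9 CPM in MI and 496.5 to 601.2 CPM in MI + UA), and of 7 endothelial markers 1, Kdr, fell (731.4 to 831.4, 658.8 to 782.7 and 602.5 to 734.3 CPM). Lymphocyte markers summed to 2.8 to 6.29 CPM over the 12 libraries, with 0 of 8 called. Neutrophil markers summed to 0.877 to 2.20 CPM with 0 of 2 tested called, and Mpo was at 0 in every library. The part of these cell types in the levels of the cell cycle genes was not tested.

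Beyond the 39 genes, 124 other cell cycle genes were tested, where Cdc45 has 2 gene identifiers and is counted as 2 genes. In MI versus Sham 75 of them were fitted higher and 49 lower (median log2 fold change 0.12), and 2 rose (1.61%, where 5.82% of all genes rose) and 0 fell. Ccnd1, cyclin D1, which carries growth signals to CDK4 and CDK6, was 14.4, 20.6, 25.6 and 20.2 CPM in the Sham rats and 28.2, 26.3, 29.6 and 27.0 CPM in the MI rats, without overlap (log2 fold change 0.47, SE 0.14, edgeR adjusted p = 0.0312). In MI + UA it was 26.7, 24.4, 29.6 and 20.7 CPM, with rats 58 and 66 within the Sham range. Aspm, a spindle pole protein, was 3.76, 2.74, 2.19 and 3.93 CPM in Sham, 7.02, 5.80, 5.92 and 4.48 CPM in MI and 3.66, 6.81, 4.47 and 3.10 CPM in MI + UA, and rose in MI (log2 fold change 0.85, SE 0.26, edgeR adjusted p = 0.0355). The MI + UA rats overlapped both other groups for Aspm. Both calls rested on single rats and were lost with rat 66 counted in MI. That of Ccnd1 was also lost without Sham rat 12, 17 or 38 or MI rat 36, 61 or 89 (largest adjusted p 0.110). That of Aspm was also lost without Sham rat 17 or 32 or MI rat 36, 57 or 61 (largest adjusted p 0.111). When each rat was left out, the log2 fold change was 0.34 to 0.60 for Ccnd1 and 0.73 to 0.98 for Aspm. By subgroup, 44 of 58 mitosis genes, 21 of 41 licensing and DNA synthesis genes, 4 of 9 G1 cyclin and kinase genes and 6 of 16 regulators of the E2F, RB and MYB-MuvB families were fitted higher in MI.

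With UA against MI, 0 of these 124 genes had an adjusted p under 0.05, 58 were fitted higher and 66 lower, and 2, Cdk7 (log2 fold change 0.37) and Gtse1 (-1.04), had an unadjusted p under 0.05 (1.61%, against 3.79% of all genes). In MI + UA versus Sham, Smc4, a condensin subunit that compacts chromosomes, was the only gene of the 124 called (0.806% higher and 0.0% lower, against 5.16% and 4.27% of all genes). It was 15.7, 14.6, 15.2 and 14.2 CPM in Sham, 19.1, 14.4, 14.2 and 19.1 CPM in MI and 19.5, 21.96, 20.03 and 18.1 CPM in MI + UA (log2 fold change 0.41, edgeR adjusted p = 0.0360). The MI + UA rats were all above the Sham rats, while MI rats 57 and 61 lay at the Sham level. The call of Smc4 was lost without any 1 of the 4 Sham rats and without MI + UA rat 29, 58 or 64 (largest adjusted p 0.103). Its log2 fold change was 0.36 to 0.46 when each rat was left out.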

How the data were processed

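One RNA-seq library per rat was analysed for 12 rats, 4 in each of Sham, MI and MI + UA, grouped by their labels. Per the study's methods and processing notes, RNA from fixed sections was depleted of ribosomal RNA and sequenced in strand-specific pairs (the labels give polyA RNA as the molecule), the authors mapped reads with STAR 2.6.1c to mRatBN7.2, and they deposited HTSeq counts per Ensembl gene without normalization. MultiQC 1.8 is also named. Whether counting used strand is not given in the sources used here. The 5 summary lines were left out of library sizes.

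Genes with at least 10 counts in all were tested with edgeR 4.0.16 (R 4.3.3) by its quasi-likelihood test, after TMM scaling, fitting all 3 groups together and adjusting p-values over 18182 genes by the Benjamini-Hochberg method. Changes were called at an adjusted p under 0.05. The script was tested on simulated data. Within each group, no libraries were duplicates of each other by their counts, and pairs across groups were not compared.

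DESeq2 1.42.0, other filters and scalings, rat 66 in MI and leaving out each rat were the alternatives. Applying them to Ccnd1, Aspm and Smc4 was chosen after seeing the data. The rule gave per-rat values for genes called in any comparison and for the 8 others of the list with the most counts. Ccna2, Top2a and all other genes were named after their values were seen. The gene list, the other cell cycle genes and the marker lists were chosen with earlier results of these data known. A further MI + UA library is not analysed here. An unmatched promoter is not shown.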

Additional observations from a re-analysis of the deposited data

Results flagged for a closer look

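With 4 rats in a group, a rat stands apart when its gap to the nearest other rat exceeds Dixon's 95% critical share of the group's range. This was examined in 63 groups of values and found in 4, where chance gives about 1 in 20, or 3.15. Within MI + UA, Tyms was lowest in rat 29, at 10.2 CPM against 11.9 to 12.1 CPM in the other 3. The summed level of the cytokinesis genes in MI + UA was highest in rat 58, at 14.1 CPM against 8.12 to 9.0 CPM. The percentage of reads assigned to genes was lowest in MI rat 61 (43.3% against 44.6% to 44.8%) and in MI + UA rat 58 (42.9% against 46.7% to 47.2%). Rat 58 thus had both the lowest share of reads on genes of its group and the highest level at 21 of the 37 cell cycle genes. The part of one in the other was not tested, and the rank of rat 58 was not counted over all genes tested.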

How the results depend on the processing

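In MI versus Sham the number of cell cycle genes called, 2, became 1 with DESeq2, which gave Rrm2 no adjusted p, and 1 with rat 66 counted in MI (Kif23 in both), and was 0 to 3 when each rat was left out. With filterByExpr the 2 genes were Ccna2 and Kif23. Over all genes, the calls in MI + UA versus MI went from 0 to 3 without a filter on low counts, and were 0 to 1 when each rat was left out (1 without MI rat 36). Without TMM, the difference in summed CPM was 28.5 in place of 14.1 for MI versus Sham (10.4 to 21.4 when each rat was left out) and 25.7 in place of 13.6 for MI + UA versus Sham (6.90 without rat 58 to 17.9 without rat 66). For MI + UA versus MI it was -0.49, 6.41 with rat 66 counted in MI, and -7.68 to 3.77 when each rat was left out.

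Calls were followed under the alternatives for the whole list, as for Ccna2. Log2 fold changes of single genes were followed only for the 10 named by rule, Ccnd1, Aspm and Smc4. Among these, the directions that turned were of log2 fold changes not called in their comparison. Others of the 37 also turned, since 25 to 31 were higher in MI versus Sham when each rat was left out. In MI versus Sham, Ccne2 was -0.0049 with only these groups in the fit. In MI + UA versus MI, counting rat 66 in MI gave Kif23 -0.059, Mcm7 -0.0069 and Mcm4 0.049 (and, without turning, Mcm2 0.40 in place of 0.15), and filterByExpr gave Pcna -0.0005. When each rat was left out, the ranges among these genes that included both directions in MI versus Sham were -0.069 to 0.093 for Ccne2, -0.18 to 0.036 for Tyms, -0.039 to 0.25 for Mcm7 and -0.083 to 0.28 for Mcm2. In MI + UA versus MI they were -0.11 to 0.046 for Ccne2, -0.18 to 0.036 for Tyms, -0.13 to 0.19 for Mki67, -0.11 to 0.083 for Pcna, -0.077 to 0.21 for Mcm7, -0.10 to 0.026 for Mcm4 and -0.31 to 0.18 for Bub1. In MI + UA versus Sham they were -0.10 to 0.053 for Ccne2 and -0.0085 to 0.64 for Bub1. The causes were not tested.

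No paired analysis was possible because each rat is in 1 group and the groups share no rat numbers. The median gene of the list had 226 reads over the 12 libraries.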
